A study of Mus musculus with 3 samples.

Results

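The T cell receptor alpha gene segments are the germline pieces from which the alpha chain of the alpha-beta T cell receptor is assembled. Members were all annotated genes of the mouse whose GENCODE M21 name begins with Trav (variable segments) or Traj (joining segments), or is Trac (the constant region). There were 189 members among 55536 annotated genes, made up of 128 Trav, 60 Traj and 1 Trac. They were described in 3 polyA-selected RNA libraries that form 1 group, regulatory T cells labelled as inflammation-experienced. The cells came from a male adult mouse of 16 weeks whose strain is labelled Foxp3GFP-DTRCD4CreERT2R26tdTomato. As that name reads, all libraries share GFP with the diphtheria toxin receptor at Foxp3, a tamoxifen-dependent Cre under Cd4 and a tdTomato reporter at R26. In the labels the libraries are technical replicates numbered 1 to 3, made from 1 donor and 1 biosample. The labels give neither the tissue nor the agent, dose or time of the inflammation. No second condition was present. Each SD below is therefore the spread over 3 technical libraries and does not measure animals.

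In a developing T cell, the RAG recombinase joins 1 variable segment to 1 joining segment by deleting the DNA between them, and splicing then links the joined pair to the constant exons. The variable segment supplies most of the part of the chain that faces peptide and MHC, the join itself supplies its most variable loop, and the constant region anchors the chain beside CD3. Early joins use variable segments near the joining segments, and later rounds on the same allele reach outward to more distant variable segments and to joining segments closer to Trac. A population of conventional T cells carries many different joins. Natural killer T cells instead share a chain built from Trav11 and Traj18, and mucosal-associated invariant T cells share one built from Trav1 and Traj33. In the mouse the middle of the locus is repeated, and names with a d or an n after the family number mark segments of the repeats.

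All members lie on the plus strand of chromosome 14 (mm10). Trac starts at 54220521 and ends at 54224206. The Traj segments start 1.707 to 65.516 kb before it, and the Trav segments 243.368 to 1792.593 kb before it. The annotation calls 108 Trav and 51 Traj genes, and 20 Trav and 9 Traj pseudogenes. Names with d held 39 Trav segments, names with n 34 and names with neither 55.

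A joining segment is hardly longer than a read. The first set of sequences shows this for the 8 Traj segments with the highest share of counts and for Traj33, which the MAIT chain uses. Capitals mark the letters TTTGGNNNNGG, the core of the conserved motif of joining segments. They were found on the sense strand of 36 of 60 Traj segments, on the other strand of none, and in the first 61 bases of 0.486% of 141454 annotated transcripts on the sense strand and 0.370% on the other. Traj33 holds no match to these letters. Sequences are the GENCODE M21 transcripts, on the plus strand of GRCm38.
Traj18: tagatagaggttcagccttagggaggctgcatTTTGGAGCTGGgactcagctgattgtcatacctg
Traj17: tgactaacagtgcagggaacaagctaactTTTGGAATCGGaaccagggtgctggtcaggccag
Traj27: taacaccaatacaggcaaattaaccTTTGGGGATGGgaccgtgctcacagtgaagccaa
Traj12: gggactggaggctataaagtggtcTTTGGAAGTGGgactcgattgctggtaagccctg
Traj15: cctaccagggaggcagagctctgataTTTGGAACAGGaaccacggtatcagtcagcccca
Traj23: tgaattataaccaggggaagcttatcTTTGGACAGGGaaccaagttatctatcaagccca
Traj22: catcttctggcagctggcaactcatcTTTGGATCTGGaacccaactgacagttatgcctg
Traj40: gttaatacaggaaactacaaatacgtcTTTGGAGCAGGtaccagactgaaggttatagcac
Traj33: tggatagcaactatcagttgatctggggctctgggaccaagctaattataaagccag

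The second set shows variable segments that short reads can hardly tell apart. These are the last bases of 2 pairs of segments that otherwise carry the same letters. Trav11d and Trav11 share 342 positions from their start, and Trav11 has 1 base more. Trav7d-2 and Trav7-2 share 336 positions, and Trav7d-2 has 1 base more. The capital marks that extra base.
Trav11d: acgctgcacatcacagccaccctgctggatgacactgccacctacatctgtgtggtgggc
Trav11: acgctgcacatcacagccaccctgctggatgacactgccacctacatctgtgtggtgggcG
Trav7d-2: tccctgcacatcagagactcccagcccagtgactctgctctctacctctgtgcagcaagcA
Trav7-2: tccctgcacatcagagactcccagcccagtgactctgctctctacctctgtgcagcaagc

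Depth was 17494966 to 20942875 expected counts over annotated genes per library, library 1 being the deepest and library 3 the shallowest. Markers of T cells and of regulatory T cells were high, with all 5 T cell and all 4 Treg markers detected, meaning at least 1 TPM in each library. TPM is abundance scaled for transcript length and depth. Thymocyte markers were near 0, with none of 5 detected and summed levels of 1.83 to 3.28 TPM. Of the B cell markers, Ighm was measured at 1301 to 1708 TPM, Cd79b at 44.6 to 46.0 TPM, Cd79a at 13.1 to 22.1 TPM and Ms4a1 at 3.48 to 5.75 TPM. Gamma-delta T cell markers summed to 18.2 to 19.6 TPM with 4 of 6 detected, CD8 T cell markers to 16.7 to 22.3 TPM with 1 of 2 detected, and myeloid markers to 28.8 to 40.5 TPM with 3 of 4 detected. The part of these other cells in the values below was not tested.

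The constant region carried most of the alpha chain counts. Trac (ENSMUSG00000076928.5) had 27426, 24493 and 28005 expected counts in libraries 1, 2 and 3, and 2860, 2772 and 3168 TPM, a mean of 2933 ± 208 TPM (SD, n = 3). Library 3 was the highest on both scales although it was the shallowest. Trac differed between libraries by more than counting (chi-square test of counts, edgeR TMM scaling, adjusted p = 1.02e-71), and without library 3 it did not pass (adjusted p = 0.886). Of the TPM, 71.3 to 71.8% went to the transcript of 935 bases and 28.2 to 28.7% to that of 413 bases. In the second deposited table, of whole-number counts, Trac held 1223, 1199 and 1209 counts, and the cause of this far lower number was not tested.

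The variable segments were next. All Trav segments together held 6966, 6712 and 7298 expected counts in libraries 1, 2 and 3, which is 0.0333, 0.0365 and 0.0417% of each library. Their summed level was 1669, 1775 and 1916 TPM, and the ratio of that sum to Trac TPM was 0.583, 0.640 and 0.605. Summed Trav TPM and Trac TPM were therefore of the same order, with the variable sum below the constant region in each library. For the beta chain, the same ratio of summed Trbv TPM to Trbc1 and Trbc2 TPM was 0.451, 0.439 and 0.430.

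The joining segments held few counts. Summed over 60 segments there were 440, 409 and 447 expected counts, or 1.60, 1.67 and 1.60% of the Trac counts. Their summed level was nevertheless 2915, 2947 and 3248 TPM. The deposited effective length of the Traj segments that reach the read length is 5 to 23 bases. Over all 60 Traj segments, with the 4 shorter ones included, its median is 12. It is the length minus 49, since a read of 50 bases has to lie inside the segment in that model. A few counts then give a large TPM, so a Traj level in TPM cannot be set beside that of Trac without this difference in mind.

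**Figure D1:**
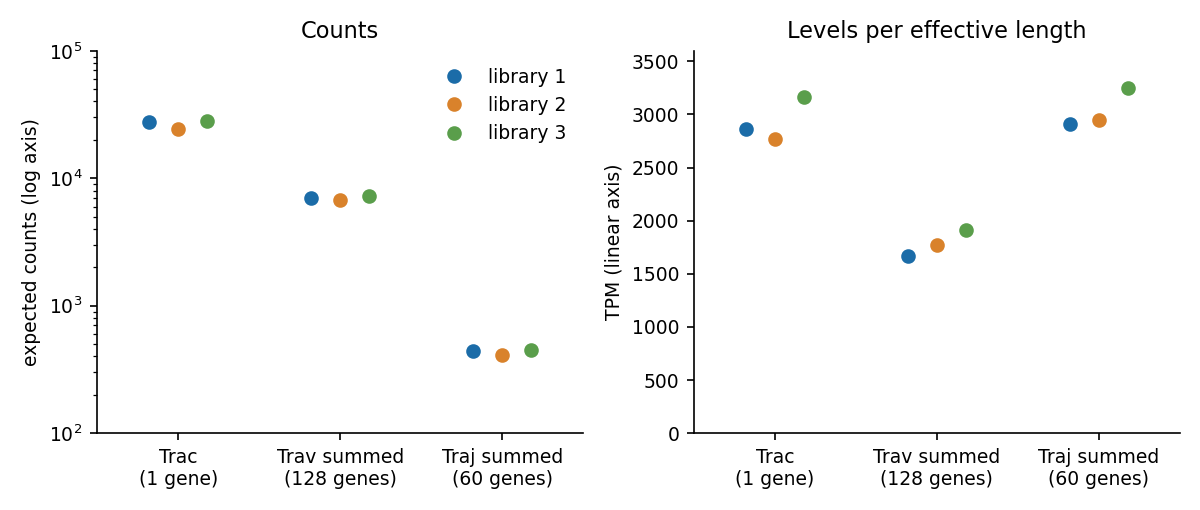
Expected counts on a log axis (left) and TPM on a linear axis (right) for Trac, all Trav and all Traj, with 1 point for each of libraries 1, 2 and 3. Traj lies far below Trac in counts, at 409 to 447 against 24493 to 28005, but at a like height in TPM.

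Of 128 Trav segments, 99 reached at least 1 TPM in each library, 95 of the 108 genes and 4 of the 20 pseudogenes, and 9 had no expected count at all. With near-identical copies merged, in a count chosen after seeing the data, 84 of the 105 groups of distinct sequence reached that level. Among the 99, mean levels spanned 1.81 to 70.4 TPM with a median of 14.7 TPM. Detection was 28 of 39 for names with d, 28 of 34 for names with n and 43 of 55 for names with neither. These 3 sets took 27.3 ± 0.42%, 24.4 ± 0.54% and 48.3 ± 0.68% of Trav counts (SD, n = 3). These SDs do not cover how reads were placed among copies: all 23 groups of near-identical segments hold more than 1 of the 3 kinds of name, and together they held 33.2% of Trav counts. Trav3d-3 and Trav3n-3 received equal counts, for example, and nearly all counts of Trav7d-2 and Trav7-2 were placed on Trav7d-2. Pseudogenes took 0.848 ± 0.22% of Trav counts, and the highest of them, Trav8-2, was measured at 6.41, 8.25 and 4.65 TPM.

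No single segment dominated. The inverse Simpson index, the number of equally used segments that would give the same evenness, was 58.9, 64.5 and 56.9 in libraries 1, 2 and 3. With near-identical copies summed it was 49.6, 52.5 and 47.3. For the 35 Trbv segments of the beta chain the same index was 14.4, 15.0 and 14.4, a lower number from fewer annotated segments, and no test of this difference was possible within 1 group. The highest Trav segment took 3.87% of Trav counts on average, the 5 highest 17.8%, the 10 highest 27.7% and the 20 highest 45.5%.

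Trav7-4 (chromosome 14, 53461099 to 53461738) led by share of counts, with 330, 208 and 275 expected counts in libraries 1, 2 and 3. Its share was 3.87 ± 0.83% and its level 54.4 ± 10.2 TPM (SD, n = 3). It was lowest in library 2 and passed the test between libraries (chi-square with edgeR TMM scaling, adjusted p = 5.52e-04). Of its 50-base windows, 24.9% occur in no other Trav segment, so a part of its counts was shared out by the authors' model.

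Trav14d-3-dv8 (53078452 to 53079045) held 238, 213 and 310 counts, or 3.61 ± 0.57%, at 50.7 ± 11.2 TPM. The dv in its name marks a segment that can also serve in delta chains. It was highest in library 3 and passed the test (chi-square with edgeR TMM scaling, adjusted p = 4.98e-06), with 61.2% of its windows its own. The 10 Trav segments with dv in their names took 9.25, 8.87 and 9.47% of Trav counts, and Trav4-4-dv10, also among the 12 highest, 2.10 ± 0.10%.

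Among segments taken singly, Trav7d-2 and Trav14n-3 had the highest levels per length. Trav7d-2 (52683964 to 52684472) was measured at 79.5, 66.1 and 65.7 TPM, and Trav14n-3 (53370077 to 53370575) at 39.5, 72.7 and 86.0 TPM. The values of Trav14n-3 differ from one library to the next more than those of the other leading segments, with 154, 239 and 293 counts. It passed the test (chi-square with edgeR TMM scaling, adjusted p = 3.20e-13), with 53.8% of its windows its own, while Trav7d-2 did not (adjusted p = 0.145). Only 0.347% of the windows of Trav7d-2 are its own, and the posterior SD of its counts was 42.6 to 58.6. Its level rests on nearly all counts of the pair with Trav7-2 being placed on it.

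Trav9-1 was the most even of the leading segments. It held 240, 230 and 249 counts and a share of 3.43 ± 0.02% (SD, n = 3), at 55.8 ± 3.48 TPM, and did not pass the test (chi-square with edgeR TMM scaling, adjusted p = 0.310). The other members of the 12 highest were Trav12-2 (2.09 ± 0.42%), Trav5-4 (1.94 ± 0.52%), Trav14-2 (1.91 ± 0.41%), the identical pair Trav3d-3 and Trav3n-3 (1.90 ± 0.37% each) and Trav13-1 (1.90 ± 0.22%). All 6 passed the test, whereas Trav4-4-dv10 did not. By the same test 63.9% of all genes tested passed, and 44.6% of those in the range of mean counts of the tested Trav segments. The ranking of the 12 highest takes segments singly, so copies that share reads divide their counts. With copies summed, Trav14d-1 and Trav14n-1 held 3.52 ± 0.42%, and Trav4d-4 and Trav4n-4 3.50 ± 0.13%. Trav6d-6 and Trav6-6 held 2.78 ± 0.10%, and Trav12d-2 and Trav12n-2 2.17 ± 0.18%. Each of these sums lies above Trav12-2, and none of their segments is among the 12 highest.

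The segments fall into 23 families by name. Trav14 took the largest share of counts, with 15.4, 17.6 and 19.0% of Trav counts in libraries 1, 2 and 3. Its exact binomial 95% intervals, which cover counting error only, were 14.6 to 16.3%, 16.7 to 18.6% and 18.1 to 19.9%, and that of library 1 lay below both others, which overlap. Trav7 followed with 16.3, 14.2 and 14.4%, so it stood above Trav14 in library 1, with overlapping intervals, and below it in libraries 2 and 3. In summed level, Trav14 reached 250, 315 and 350 TPM over 9 segments and Trav7 266, 246 and 271 TPM over 13 segments.

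Trav9 took 9.99 ± 0.82% of Trav counts, Trav6 9.51 ± 0.70%, Trav12 8.65 ± 0.49% and Trav4 7.93 ± 0.31% (SD, n = 3). The 4 kept this order in each library, although Trav9 and Trav6 stood at 10.15 and 10.13% in library 2. The 6 families together held 69.3, 68.8 and 67.0% of Trav counts from 67 of the 128 segments. Among families of 1 segment the highest value was 1.21%, of Trav17 in library 3. The index of equally used families was 10.14, 10.03 and 9.93.

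**Figure D2:**
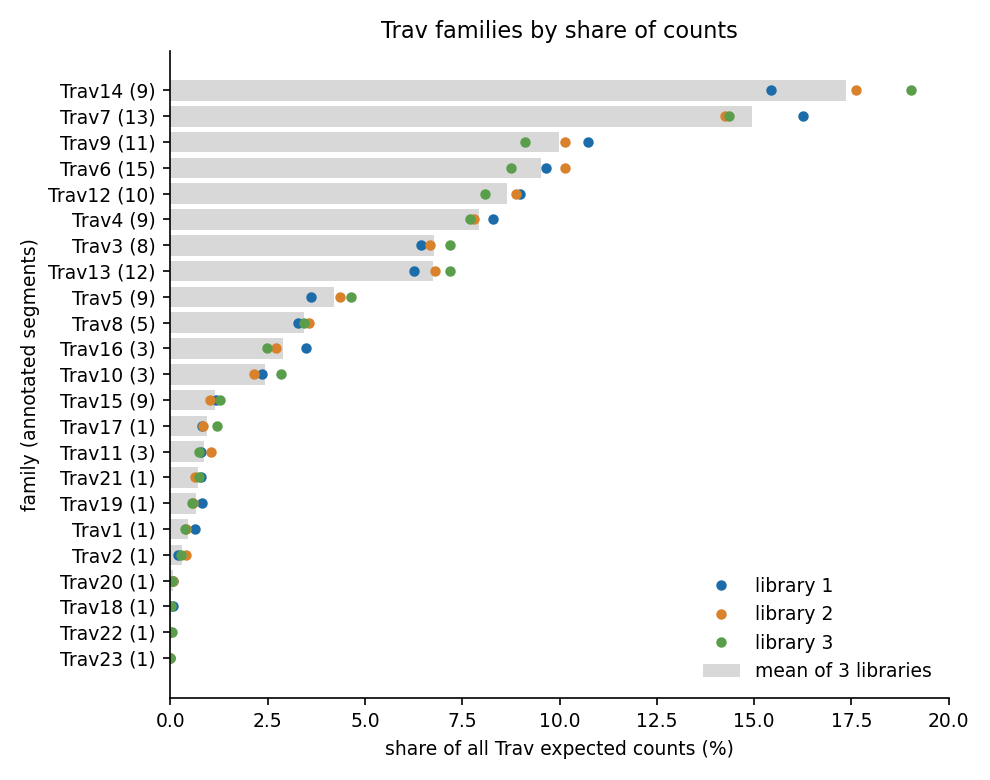
Share of all Trav expected counts for each of 23 families, with the number of annotated segments in brackets, bars at the mean of 3 libraries and 1 point per library. Trav14 and Trav7 lead at 15.4 to 19.0% and 14.2 to 16.3%.

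Position along the locus was then examined, since the order of rearrangement follows it. The 64 Trav segments nearer to Trac held 62.1% of Trav counts in library 1 (exact binomial 95% interval 60.9 to 63.2%), 59.98% in library 2 (58.8 to 61.2%) and 62.1% in library 3 (61.0 to 63.2%). These intervals cover counting alone. Of the groups of near-identical copies, 13 have members on both sides of that middle, and they held 24.2 ± 0.37% of Trav counts (SD, n = 3). In placements chosen after seeing the data, the share nearer to Trac averaged 74.7% with all of those counts put nearer, 50.5% with all put farther and 66.7% with those groups left out. A second deposited gene table, with whole-number counts, gave 75.9% over the 99 of 128 Trav segments that it lists. Across the 128 segments, counts per effective base and distance to Trac had a Spearman rho of -0.12, as a description of points that share libraries and, for copies, reads.

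The outermost Trav segments were Trav23 and Trav1. Trav23, the segment nearest to Trac at 243.368 kb (53977153 to 53977678), had 0 counts in each library, which allows a share of up to 0.0431, 0.0447 and 0.0411% of Trav counts. Trav1, the farthest at 1792.593 kb (52427928 to 52428876), had 43, 26 and 28 counts in libraries 1, 2 and 3, a level of 11.2, 7.46 and 7.75 TPM and 0.463 ± 0.13% of Trav counts. All windows of Trav1 are its own, and it did not pass the test between libraries (chi-square with edgeR TMM scaling, adjusted p = 0.269).

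For the joining segments, the 30 nearer to Trac held 65.0% of Traj counts in library 1 (exact binomial 95% interval 60.3 to 69.5%), 65.3% in library 2 (60.4 to 69.9%) and 61.5% in library 3 (56.8 to 66.1%). Counts per effective base and distance had a Spearman rho of -0.45 over the 56 segments that have an effective length above 0. In TPM, which takes the segments' lengths into account, the highest levels lay at Traj12, Traj18 and Traj27, which start 13.968, 19.744 and 28.218 kb before Trac. The deletion of joining segments by a join, and reads that cross a join, are not modelled by these gene entries.

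**Figure D3:**
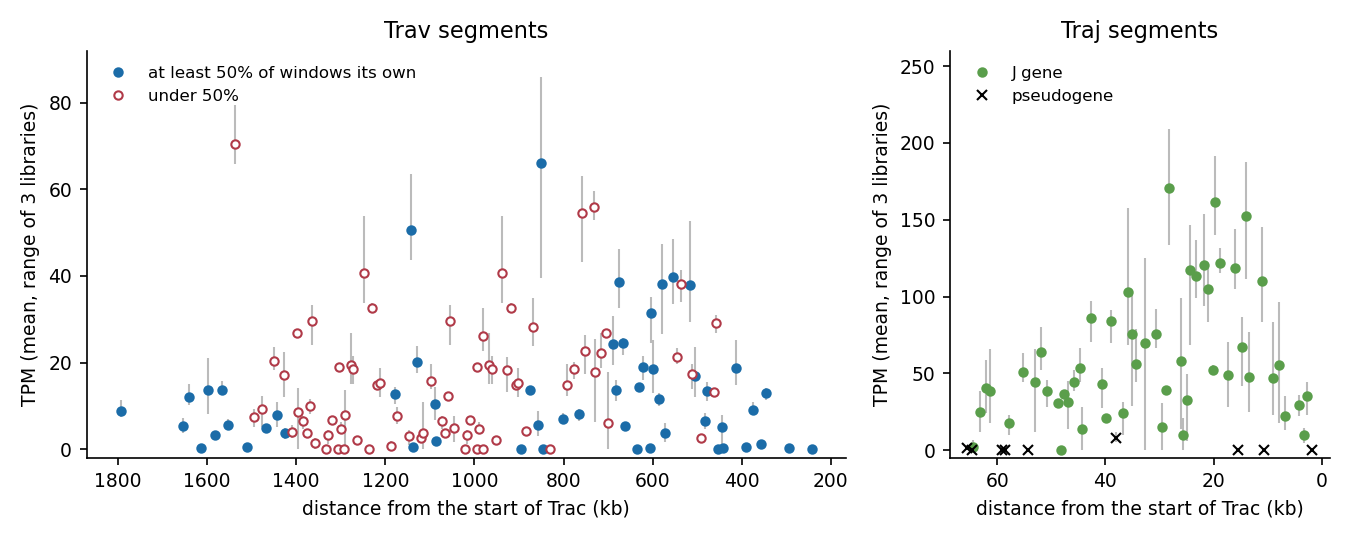
Mean TPM (points) and range over 3 libraries (grey lines) of each Trav segment (left) and Traj segment (right) against the distance from the start of Trac in kb, with Trac to the right. Filled Trav points have at least 50% of their 50-base windows in no other Trav segment, open ones fewer, and crosses mark Traj pseudogenes, of which Traj36 alone is at 1 TPM or more in each library.

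Of 60 Traj segments, 46 reached at least 1 TPM in each library, 45 genes and 1 pseudogene, and 8 had no count. That limit means little here, since the median of the mean counts of the 46 was 7.5 and the lowest 1.33, and 10 counts in each library were reached by 8 segments. The index of equally used Traj segments was 32.1, 30.2 and 34.1 in libraries 1, 2 and 3. The 8 highest took 35.4% of Traj counts.

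Traj18 (54200777 to 54200842, 19.744 kb from Trac), printed above, held the most counts. It had 31, 39 and 31 counts in libraries 1, 2 and 3, or 7.05, 9.54 and 6.94% of Traj counts, with exact binomial 95% intervals of 4.84 to 9.85%, 6.87 to 12.8% and 4.76 to 9.70%. The intervals overlap. Traj18 is also among the longer segments, with 17 effective bases, and per length it stood at 161 ± 26.9 TPM, below Traj27 at 170 ± 37.7 TPM (SD, n = 3), a difference within the spread between libraries.

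Traj27 had 22, 16 and 25 counts on 10 effective bases, and Traj12 had 22, 17 and 12 counts on 9, at 152 ± 38.4 TPM. Of the 8 highest, Traj17 was the most even, with 21, 20 and 22 counts and 122 ± 8.39 TPM. Traj15, Traj23, Traj22 and Traj40 held mean shares of 3.73, 3.67, 3.57 and 2.94% of Traj counts, at 118 ± 22.3, 117 ± 42.6, 113 ± 20.4 and 86.1 ± 14.04 TPM. At these counts the intervals of Traj18 and Traj17, the 2 highest by share, overlap in each library.

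The segments of the natural killer T cell chain were set side by side. Trav11 and Trav11d, whose ends are printed above, held 0, 62.9 and 0 counts and 45.8, 0 and 49.4 counts in libraries 1, 2 and 3. All their counts were thus placed on Trav11d in libraries 1 and 3 and on Trav11 in library 2, and the deposited posterior SD of these counts was 14.1 to 16.1. Summed, the 2 copies held 45.8, 62.9 and 49.4 counts, or 0.658, 0.937 and 0.677% of Trav counts, with exact binomial 95% intervals of 0.484 to 0.880%, 0.722 to 1.20% and 0.497 to 0.887%. The summed copies did not pass the test (chi-square with edgeR TMM scaling, adjusted p = 0.114), in an analysis with copies summed that was chosen after seeing the data. The second gene table placed 0 counts on either copy.

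Traj18 took 6.94 to 9.54% of the counts of its kind. In shares of TPM, its mean was 5.33% against 7.84% of counts. For Trav11 and Trav11d together, the mean was 0.820% of TPM against 0.757% of counts. Of the natural killer T cell markers, Zbtb16, the factor that directs that lineage, was measured at 0.10, 0.45 and 0.62 TPM, Klrb1c, the gene of NK1.1, at 4.51, 3.13 and 5.05 TPM, and Cd160 at 28.0, 29.6 and 32.5 TPM from 503, 480 and 533 counts. Of the 5 markers in that list, which counts Trav11 and Traj18 themselves, 3 were detected, and the part of such cells was not tested. In a bulk sample, fewer cells of a type and less RNA per cell cannot be told apart. For the MAIT chain, Traj33 had 3, 10 and 9 counts, or 0.682, 2.44 and 2.01% of Traj counts, beside 0.463 ± 0.13% of Trav counts in Trav1. The files count segments 1 by 1 and hold no joined pairs.

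The libraries were then compared segment by segment. Of 99 Trav segments with a mean of at least 10 counts, 37 differed between libraries by more than counting, which is 37.4% (chi-square test of counts, edgeR TMM scaling, p adjusted over all genes). By the same test 63.9% of all annotated genes tested were called, and 44.6% of those in the range of mean counts of the tested Trav segments. The share of called Trav segments lay below both. The median chi-square was 4.50 for Trav, 5.74 for genes in the Trav range of counts and 12.8 for all genes. The count rests in part on library 3: without it, 15 of 100 Trav segments were called, beside 30.2% of all genes tested. Without library 2, 24 of 97 Trav segments were called (24.7%), beside 53.9% of all genes tested.

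Of the 37 called segments, 27 lay above expectation in library 3, 16 in library 2 and 8 in library 1. With copies merged these were 22, 15 and 7 of 32 called groups. Among all called genes 46.4, 56.9 and 57.1% lay above expectation in libraries 3, 2 and 1, and among called genes in the Trav range of mean counts 42.6, 63.4 and 50.2% did. Over all 99 the median log2 of observed over expected counts was -0.10, 0.00 and 0.08 in libraries 1, 2 and 3, against 0.01, 0.02 and 0.01 over all genes and -0.04, 0.05 and 0.00 over genes in the Trav range of mean counts. Trac deviated by -0.06, -0.07 and 0.13 on the same scale, and the median Trbv segment by -0.12, -0.04 and 0.13. Of the Traj segments 0 of 16 tested were called, beside 63.9% of all genes tested, and 0 at an unadjusted p under 0.05. With total counts in place of TMM 1 was under that limit, and with DESeq2 size factors 0 were. The median of mean counts was 12.5 for the tested Traj segments and 343 for all genes tested, so their shares of calls do not compare like counts.

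**Figure D4:**
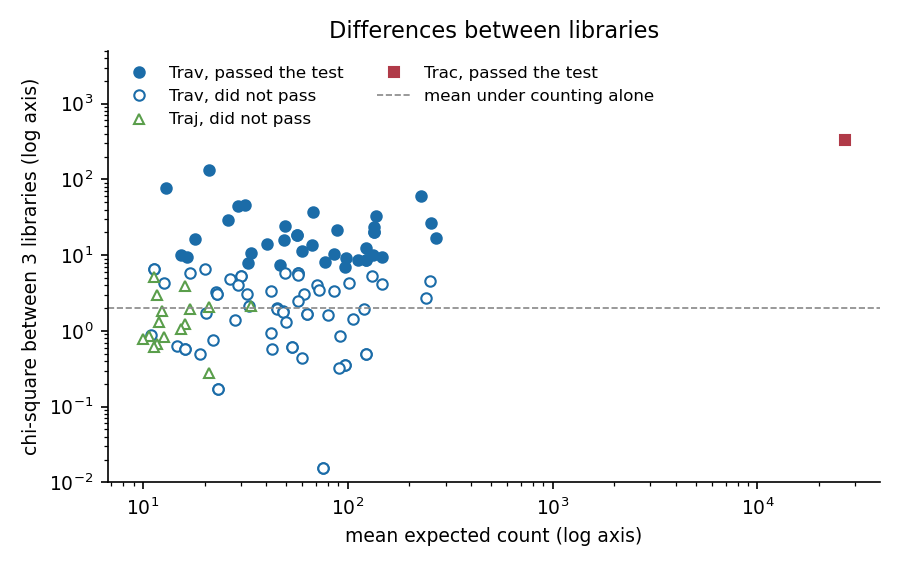
Chi-square between 3 libraries against mean expected count, both on log axes, for the 99 Trav (circles), 16 Traj (triangles) and Trac (square) that were tested. Filled symbols passed the test and the dashed line is the mean that counting alone gives.

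Several of the largest deviations were found in copies. The 5 called segments in which 1 library lay farthest from the mean of the rest were Trav11, Trav11d, Trav12d-3, Trav6n-5 and Trav3-4. The first 4 share most of their sequence with another segment. Trav12d-3 held 37.5, 49.1 and 0 counts beside 92.5, 82.7 and 118 in Trav12n-3, and their sum was 130, 132 and 118. The sum did not pass the test (chi-square with edgeR TMM scaling, adjusted p = 0.598). Trav6n-5 held 0, 37.9 and 0.97 counts beside 90.1, 24.6 and 88.9 in Trav6-5, with which it shares 82.4% of its windows, and their sum was 90.1, 62.4 and 89.9. Trav12n-3, Trav6-5 and Trav7-2 are named here as their partners and were chosen after their values were seen.

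Trav7d-2 and Trav7-2 behaved otherwise, with 298, 228 and 227 counts on Trav7d-2 and 0, 0.41 and 0 on Trav7-2 in libraries 1, 2 and 3. Here the same copy took the counts in each library, with a posterior SD of 42.6 to 58.6. For Trav3d-3 and Trav3n-3, which are identical, the counts were split evenly, 118, 113 and 170 on each. The sum of this pair passed the test, highest in library 3 (chi-square with edgeR TMM scaling, adjusted p = 8.12e-09).

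Trav3-4 (53776956 to 53777576) differed without such a partner. It held 41.8, 32.7 and 2.70 expected counts in libraries 1, 2 and 3, with a posterior SD of 3.25, 2.83 and 1.17, and 80.0% of its windows are its own. Library 3 was the low one, and the same order stood in the second deposited table, with 33, 27 and 3 counts. The difference passed the test (chi-square with edgeR TMM scaling, adjusted p = 1.56e-06). Trav5-1, which was chosen after its values were seen and whose windows are all its own, held 31, 74 and 43 counts, highest in library 2 (adjusted p = 1.38e-05).

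**Figure D5:**
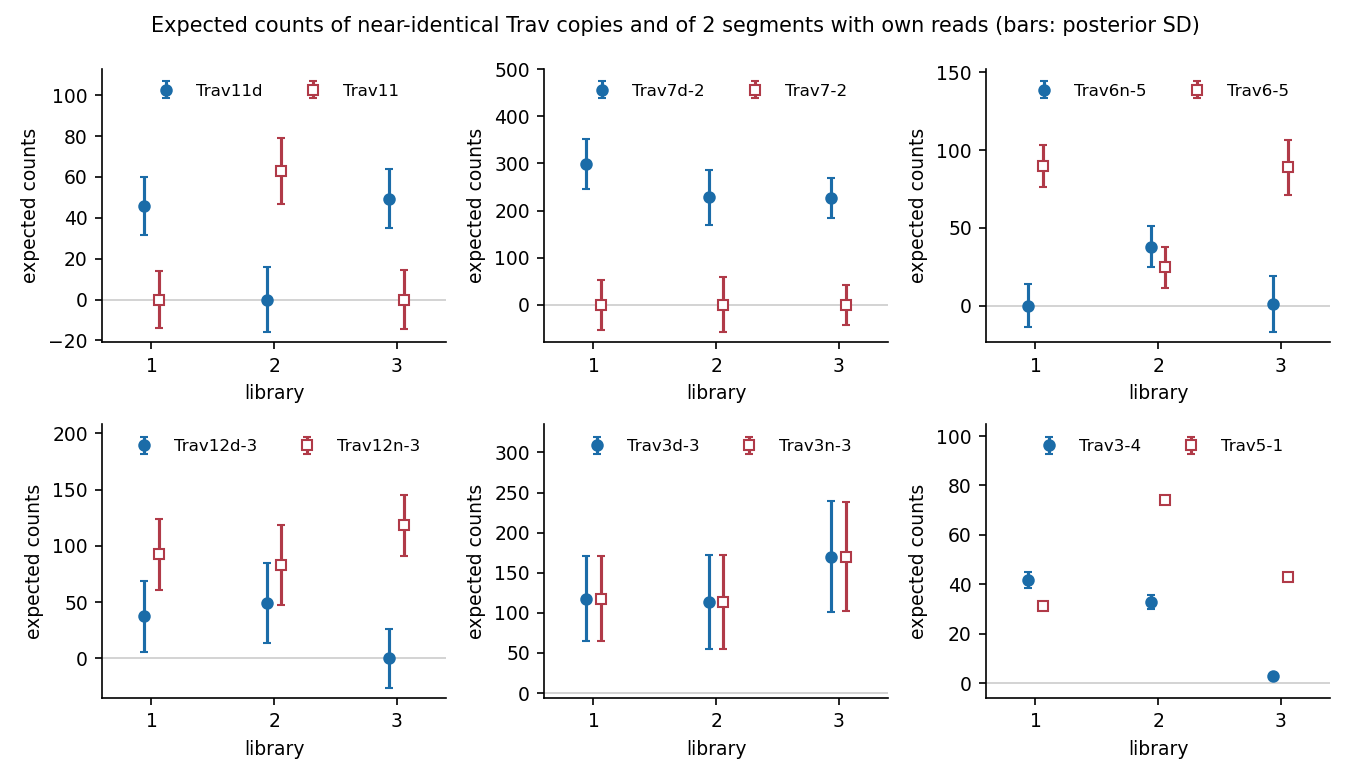
Expected counts (points) with the deposited posterior SD (bars) in libraries 1, 2 and 3 for 5 pairs of Trav segments that share most or all of their sequence, and for Trav3-4 and Trav5-1. Counts of Trav11 and Trav11d change places in library 2, while Trav3-4 falls to 2.70 in library 3 with a narrow posterior SD.

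Sequence sharing was common in the Trav set. Of 128 segments, 39 have no 50-base window that is theirs alone and 54 have at least 50% of their windows to themselves. The 39 took 27.1 ± 1.08% of Trav counts (SD, n = 3). The posterior SD had a median of 5.61% of the count in 40 tested segments with at least 50% of windows their own and 43.9% in the 59 with fewer. Of these 40 segments 16 were called different between libraries (40.0%), and of the 59, 21 (35.6%). Among genes in the Trav range of mean counts 44.6% were called. Summing near-identical copies left 83 entries to test, of which 32 were called (38.6%), including 7 of 20 summed groups, beside 63.9% of all genes tested. Trav6n-5 and Trav6-5, with 82.4% of windows shared, lay under the limit of 90% for summing, and both were still called.

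Genes that act with the alpha chain were measured in the same libraries. The partner constant regions Trbc1 and Trbc2 stood at 1932, 2215 and 2386 TPM and at 3788, 3942 and 4646 TPM, their reads being partly shared. The CD3 genes, whose products carry the signal of the receptor, were at 1326 ± 118 TPM for Cd3e, 837 ± 102 TPM for Cd3d, 1212 ± 103 TPM for Cd3g and 392 ± 29.3 TPM for Cd247 (SD, n = 3). All 6 passed the test between libraries, as 63.9% of all genes did, and all 6 were, like Trac, highest in TPM in library 3.

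Genes of receptor assembly were at or near 0. Rag1 had 0, 0 and 3 counts and Rag2 0 in each library, which allows up to 0.0889, 0.0975 and 0.0940 TPM for Rag2. Ptcra, the surrogate alpha chain of thymocytes, had 0, 0 and 2 counts. Dntt, which adds bases at joins, was measured at 0.89, 1.75 and 2.23 TPM.

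The delta chain genes that lie inside the alpha locus were low beside the alpha segments. Trdc, the delta constant region, was measured at 3.12, 3.24 and 2.29 TPM, against 2860, 2772 and 3168 TPM for Trac. Trdv1 was at 10.4, 7.25 and 7.54 TPM and Trdv2-2 at 3.28, 4.93 and 7.20 TPM. Trdv2-1 had 22.2, 0 and 0 counts beside 14.9, 20.5 and 30.0 in Trdv2-2, and whether these 2 share reads was not tested. Trdv4 and Trdv5 stayed under 1 TPM in each library. Trdv5 overlaps Trdc on the other strand, and the use of strand in counting, not given in the sources used here, decides whether their reads can be told apart.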

How the data were processed

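PolyA-selected RNA was sequenced in 3 libraries of 1 group, which the labels call technical replicates of 1 biological replicate, so p-values measure only technical spread. The authors deposited, for each library, a gene table with expected counts, the posterior SD of the count, TPM and FPKM, for mm10 and GENCODE M21 per the deposited text. The transcript table gives each transcript's percent of its gene's TPM, per the file headers. A second gene table deposited by the authors holds whole-number counts for GENCODE M4. Aligner, counters, strand setting and the rule of the second table: not given in the sources used here. Effective length is length minus 49, as for single reads of 50 bases, so counts inside short segments are few and reads over V-J joins have no model.

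Positions and names came from the M21 annotation, and shared 50-base windows were counted among the M21 transcripts of the members. A share is a percent of all Trav or Traj expected counts in a library, computed from the deposited counts. Copies were summed where at least 90% of the shorter segment's windows were shared. Expected counts were rounded, and genes with a mean of at least 10 counts were set against Poisson counting in a chi-square test with 2 degrees of freedom, edgeR (4.0.16) TMM scaling and a Benjamini-Hochberg adjusted threshold of 0.05 over all genes. Test scripts were tested on simulated data. DESeq2 (1.42.0) gave alternative size factors, and other filters, units and tables and leaving out each library were further alternatives. Log2 of observed over expected counts used a pseudocount of 0.5. A count of 0 allows up to 3 counts, and binomial intervals are exact at 95%. Both cover counting error alone, because PCR copies could not be told from separate molecules.

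Named segments are Trac, the 12 Trav and 8 Traj segments and 6 Trav families with the highest mean share, the 5 called Trav segments with the largest deviation of 1 library, the nearest and farthest Trav, the chains of natural killer T and MAIT cells, and a list of 16 pathway genes. Trav7n-6, Trav9d-4, Trav9n-4, Trav8-2, Trav17 and Traj36 were named after their values were seen. So were pairs of copies with a high summed share and genes of the locus that are no member. Members and lists were chosen with earlier results of these data known. A marker of the B cell list is not reported here.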

Additional observations from a re-analysis of the deposited data

How the results depend on the processing

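Only counting between technical libraries could be tested, and Traj segments, with a mean count of at most 33.7, allow only large differences to be seen. No paired analysis was possible because the libraries form 1 group and no groups share replicate numbers. Leaving out 1 library gave 4488 to 8027 calls among all genes (30.2 to 53.9% of those tested) against 9503 (63.9%). It gave 15 to 29 Trav calls (15.0 to 29.6%) against 37 (37.4%). Without library 1, 29 of 98 Trav segments were called (29.6%), beside 51.4% of all genes tested. The adjusted p for Trac was 2.19e-54 to 0.886 with 1 library left out, against 1.02e-71 (chi-square with edgeR TMM scaling). The second gene table, which lists 99 of the 128 Trav segments, gave 6222 calls among 10964 genes (56.7%). Of 54 Trav segments tested there, 12 were called (22.2%). It gave an index of 39.4 equally used Trav segments against 60.1, and 75.9% of Trav counts nearer to Trac against 61.4%. Many segments without windows of their own have 0 counts there. A filter of 50 counts left 53 Trav segments, of which 23 were called (43.4%), beside 74.9% of all genes tested. With no filter, 3 of 52 Traj segments were called, beside 30.2% of all genes tested. FPKM gave 1912 for Trac against 2933 TPM, by the units' construction. Shares of TPM put 66.1% of Traj in the 30 segments nearer to Trac against 63.9% of counts. DESeq2 size factors gave 37 calls among 99 Trav segments, beside 64.3% of all genes tested, and total counts 40 of 99, beside 67.6%. Placements of copies added after seeing the data put 74.7, 50.5 and 66.7% of Trav counts nearer to Trac (all nearer, all farther, left out). Of the other values, 7 moved by more than the spread between libraries. The share of Trav11 and Trav11d was 0 in the second table against 0.757%, the Trav share of a library was 0.179% of TPM against 0.0371% of counts, and 8 Traj segments had at least 10 counts against 46 at 1 TPM. The cause of these differences was not tested except where the construction gives it.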

Other observations

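Between Trav1 and Trac the annotation holds 38 genes that are no member. Of these, 6 reached at least 1 TPM in each library: 4 variable segment genes, Trdc and the antisense gene Gm43650. The variable segment genes were Trdv1, Trdv2-2, C920008G01Rik and B230359F08Rik. C920008G01Rik, an unnamed variable segment (chromosome 14, 53020416 to 53020991, mm10), had 59.8, 62.1 and 98.3 counts in libraries 1, 2 and 3. Its level was 13.9, 15.7 and 24.8 TPM, which is near the median of 14.7 TPM of the detected Trav segments. Not being a member by name, it enters none of the Trav shares above. Shared windows were counted among members only, so whether it shares reads with a member was not tested. The locus also holds 3 protein-coding genes of other kinds, and none of them was detected. No count was placed on the joining and diversity segments Trdj1, Trdj2, Trdd1 and Trdd2 of the delta chain, whose short gene entries limit what could be counted.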
